A study of Mus musculus with 12 samples.

Results

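The 51 interferon-stimulated genes described here are genes whose transcription is switched on when cells are exposed to interferons, and their list was given by gene symbol. A probe set carrying the gene's symbol was found for 47 of the 51, out of 22206 probe sets tested. Ifi44, Gbp5, Tgtp1 and Ifi47 were not analysed here. The genes were grouped by role into regulators of transcription and signalling, sensors of foreign RNA, the OAS and IFIT families, other type I antiviral effectors, the ISG15, ubiquitin and PARP system, the GTPases induced by interferon gamma, and the peptide transporter Tap1. The OAS and IFIT families and the other antiviral effectors together are called type I antiviral effectors (26 genes, 25 measured) and are set beside the interferon gamma GTPases (10 genes, 7 measured).

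The study gave LY (LY2584702 tosylate, an oral inhibitor of the kinase S6K1) to mice while they became obese on a high-fat diet (HFD), and RNA of liver (LIV) and subcutaneous adipose tissue (SAT) was hybridised to arrays. All animals were C57BL/6N males, 8 weeks old at the start, treated for 12 weeks and fed a diet with 60% of its calories as fat for the last 10 of them. HFD mice received vehicle (animals 8, 11 and 14) and HFD + LY mice received LY at 25 mg/kg by gavage every 12 h (animals 16, 18 and 20), so that both groups share the diet and differ in the drug. Each animal gave 1 LIV and 1 SAT array, 12 arrays in all and 3 per group.

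Interferons are secreted proteins that warn neighbouring cells of infection. Type I interferons bind the IFNAR receptor and act on genes through an interferon-stimulated response element (ISRE), whereas interferon gamma binds another receptor and acts through a gamma-activated sequence (GAS). In the liver, Kupffer cells, the resident macrophages, and hepatocytes both respond to interferons, and in adipose tissue adipocytes and macrophages do.

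The arrays carried the tissues their labels name. The mean log2 signal of 9 hepatocyte markers lay between 13.8 and 13.9 in the LIV arrays and between 7.89 and 8.27 in the SAT arrays, and that of 8 adipocyte markers between 12.9 and 13.1 in SAT and between 8.24 and 8.69 in LIV. Some SAT arrays stood apart in skeletal muscle genes. The mean of 21 muscle markers was 12.67 in HFD animal 11, 12.40 in HFD + LY animal 20 and 9.16 in HFD animal 14, against 7.91 to 8.06 in the other SAT arrays. Results on SAT are therefore given with and without animals 11 and 20. Signals are log2 values, so that a difference of 1 is a doubling, and values in sentences follow the order of the animals above. An exact permutation test of 3 against 3 samples cannot give a two-sided p below 0.1, so the tests are those of limma, fitted across all probe sets with Benjamini-Hochberg adjustment, and they measure the spread between these animals.

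The first question was whether LY altered the interferon-stimulated genes in LIV. Their signals leaned to lower values in HFD + LY mice. Of the 47 genes, 39 had a negative log2 difference between HFD + LY and HFD, and the median difference was -0.23, against -0.0066 over all probe sets. At an unadjusted p under 0.05, limma placed 13 of the 47 (27.7%) lower and 0 higher in HFD + LY mice, where 3.94% of all probe sets were lower and 2.96% were higher. Below, a member passed, or was lower or higher, at this unadjusted threshold unless said otherwise. No member passed an adjusted p under 0.05 by limma or by the methods' t-test, a threshold that 1 of all probe sets (0.0045%) passed by limma. The 3 arrays of HFD + LY lay wholly below those of HFD for 14 members and wholly above for 0, against 6.89% and 5.61% of all probe sets. Without HFD animal 8 the fit gave 7 members lower and 1 higher, and without HFD + LY animal 20 it gave 7 lower and 0 higher. In these fits 4.96% and 4.74% of all probe sets were lower and 3.59% and 4.05% higher. Centring each array on its median left 10 members lower and 0 higher, while the split of all probe sets turned from 658 higher and 875 lower to 995 higher and 602 lower.

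**Figure D1:**
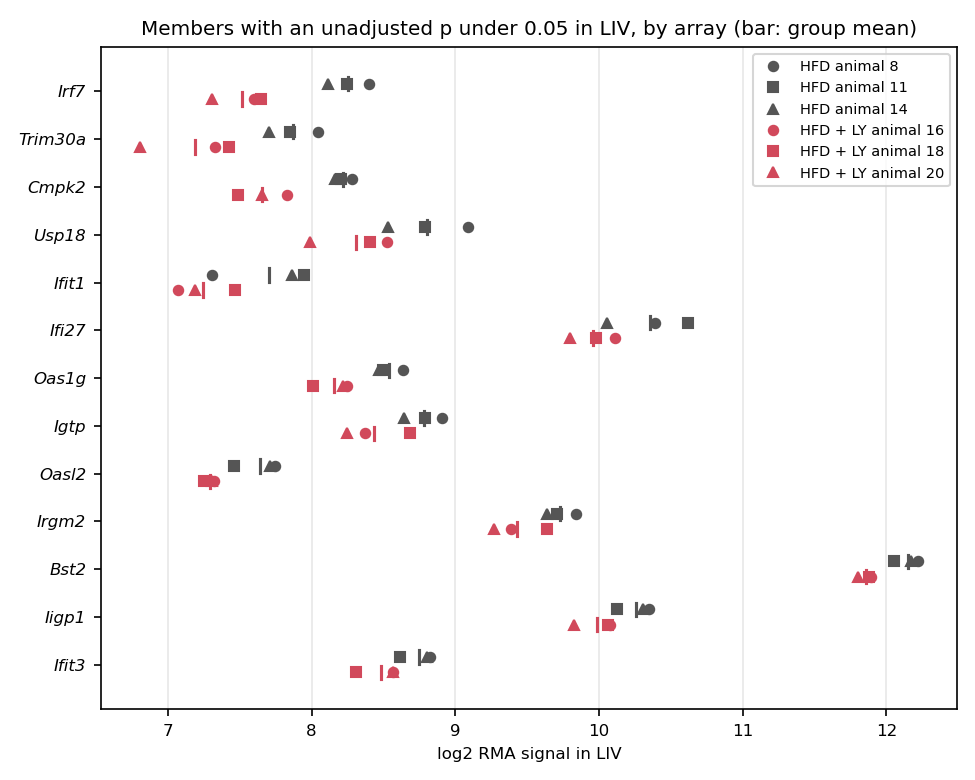
Log2 signal in LIV of the 13 members at an unadjusted p under 0.05, with 1 point per array (grey, HFD; red, HFD + LY; shape, animal) and a bar at each group mean. In 10 of the 13 genes every HFD + LY point lies below every HFD point, and Igtp, Ifit1 and Ifi27 overlap.

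Among the regulators, Irf7 stood lowest in HFD + LY livers. Irf7, the transcription factor that amplifies type I interferon production, read 8.40, 8.25 and 8.11 in HFD mice and 7.60, 7.65 and 7.30 in HFD + LY mice. The groups did not overlap, and the lowest array was animal 20. The difference was -0.74 (SE 0.12), or 1.67-fold lower, the smallest p of all members, with an adjusted p of 0.398 by limma. Irf9 and Stat2, the DNA-binding and activating partners in the complex below the type I receptor, differed by -0.12 and 0.07 and did not pass (adjusted p = 0.849 and 0.866 by limma). The RNA sensors did not pass either. Ddx58, which encodes RIG-I, differed by -0.23 (adjusted p = 0.719 by limma), with every HFD + LY array below every HFD array, and Ifih1, which encodes MDA5, and the related helicase Dhx58 differed by -0.08 and -0.09.

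In the OAS family, most of whose members make the 2-5A messenger that activates RNase L, all 6 members were negative and 2 passed the unadjusted threshold. Oas1g read 8.64, 8.50 and 8.47 in HFD and 8.24, 8.01 and 8.22 in HFD + LY. Every treated liver lay below every control, a difference of -0.38 (SE 0.10, adjusted p = 0.685 by limma). Oasl2, an OAS-like member with a ubiquitin-like tail, read 7.75, 7.46 and 7.71 in HFD and 7.32, 7.25 and 7.31 in HFD + LY. The treated arrays lay within a narrow band below the controls, at a difference of -0.35 (SE 0.10, adjusted p = 0.687 by limma). Oasl1 differed by -0.41 without passing (adjusted p = 0.719 by limma), and Oas1a, Oas2 and Oas3 by -0.19, -0.07 and -0.03. The Oas1a and Oas1g genes are close copies, so probes may not tell their transcripts apart.

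The IFIT proteins recognise features of foreign RNA, and their 3 genes did not move as 1 group. Ifit1 read 7.31, 7.95 and 7.86 in HFD and 7.07, 7.47 and 7.19 in HFD + LY, so that HFD animal 8 fell among the treated arrays. Its difference was -0.46 (SE 0.18, adjusted p = 0.707 by limma). Ifit3 read 8.82, 8.61 and 8.80 against 8.57, 8.31 and 8.56, without overlap and at a difference of -0.27 (SE 0.11, adjusted p = 0.719 by limma). A near-identical copy of the gene may share its probes. Ifit2 was the member with the largest positive difference in LIV, 0.26 (SE 0.13, adjusted p = 0.719 by limma), and did not pass the unadjusted threshold.

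Of the 16 other type I antiviral effectors measured, 3 were lower at an unadjusted p under 0.05 and 13 were negative. Cmpk2, a mitochondrial nucleotide kinase encoded next to the antiviral gene Rsad2, read 8.28, 8.20 and 8.16 in HFD and 7.83, 7.49 and 7.65 in HFD + LY. The HFD arrays were tightly grouped above all treated ones, at a difference of -0.56 (SE 0.11, 1.47-fold lower, adjusted p = 0.519 by limma). Rsad2, which encodes viperin, differed by only -0.14 (adjusted p = 0.791 by limma). Bst2, which encodes tetherin, the protein that holds budding virions at the cell surface, read 12.22, 12.05 and 12.17 against 11.89, 11.88 and 11.80. Its groups were separate although the difference was small, -0.29 (SE 0.09, adjusted p = 0.687 by limma). Ifi27, which encodes a small protein of the ISG12 family, read 10.39, 10.62 and 10.05 against 10.11, 9.98 and 9.80. HFD + LY animal 16 lay above HFD animal 14, and the difference was -0.39 (SE 0.15, adjusted p = 0.707 by limma). The remaining effectors lay between -0.37 (Rtp4) and 0.19 (Eif2ak2, which encodes the kinase PKR), and the GTPase genes Mx1 and Mx2 at 0.0037 and -0.25. None of these passed.

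ISG15 is a ubiquitin-like protein that interferon-treated cells attach to their own proteins. Isg15 itself differed by -0.15 in LIV and did not pass (adjusted p = 0.759 by limma). Usp18, the protease that removes ISG15 and also dampens the type I receptor, read 9.09, 8.79 and 8.53 in HFD and 8.52, 8.41 and 7.99 in HFD + LY. The groups just failed to touch, at a difference of -0.50 (SE 0.18, adjusted p = 0.702 by limma). Trim30a, a mouse TRIM protein that restrains Toll-like receptor signalling, read 8.05, 7.85 and 7.70 against 7.33, 7.42 and 6.80. Animal 20 was far below the other treated arrays, and the difference was -0.68 (SE 0.17, 1.60-fold lower, adjusted p = 0.685 by limma). The ligase genes Herc6 and Trim25 differed by -0.28 and -0.16, and Parp9, Parp14 and Dtx3l, which act together in ADP-ribosylation, by 0.10, 0.08 and -0.07.

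The interferon gamma GTPases include proteins that coat and break the vacuoles of intracellular pathogens. Of the 7 measured members, 3 were lower at an unadjusted p under 0.05. Igtp, which encodes the immunity-related GTPase IRGM3, read 8.91, 8.79 and 8.64 in HFD and 8.37, 8.68 and 8.24 in HFD + LY. Animal 18 overlapped the controls, and the difference was -0.35 (SE 0.13, adjusted p = 0.707 by limma). Irgm2 read 9.84, 9.71 and 9.64 against 9.39, 9.64 and 9.27, and Iigp1, which encodes the effector GTPase Irga6, read 10.35, 10.12 and 10.31 against 10.08, 10.06 and 9.82. Both were lower without overlap, although Irgm2 of HFD animal 14 and HFD + LY animal 18 read alike at this rounding, at -0.30 (SE 0.12, adjusted p = 0.712 by limma) and -0.27 (SE 0.11, adjusted p = 0.715 by limma). The guanylate-binding protein genes Gbp3, Gbp2 and Gbp7 differed by -0.46, -0.33 and -0.23 and did not pass, with an adjusted p of 0.719, 0.719 and 0.743 by limma. Irgm1 differed by 0.06. Probe sets of these GTPase families may cross-hybridise between close copies. Tap1, which carries peptides to class I molecules and stands alone in its list, differed by -0.30 (adjusted p = 0.719 by limma) and did not pass.

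The type I effectors and the interferon gamma GTPases were both shifted to lower signals in HFD + LY livers. Their median differences were -0.19 over 25 genes and -0.30 over 7 genes, and 21 of 25 and 6 of 7 were negative. At an unadjusted p under 0.05, 7 of 25 effectors (28.0%) and 3 of 7 GTPases (42.9%) were lower and none was higher. Over all probe sets 3.94% were lower and 2.96% higher, and the median difference was -0.0066. These are descriptions of the 2 lists, and the difference between them was not tested.

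**Figure D2:**
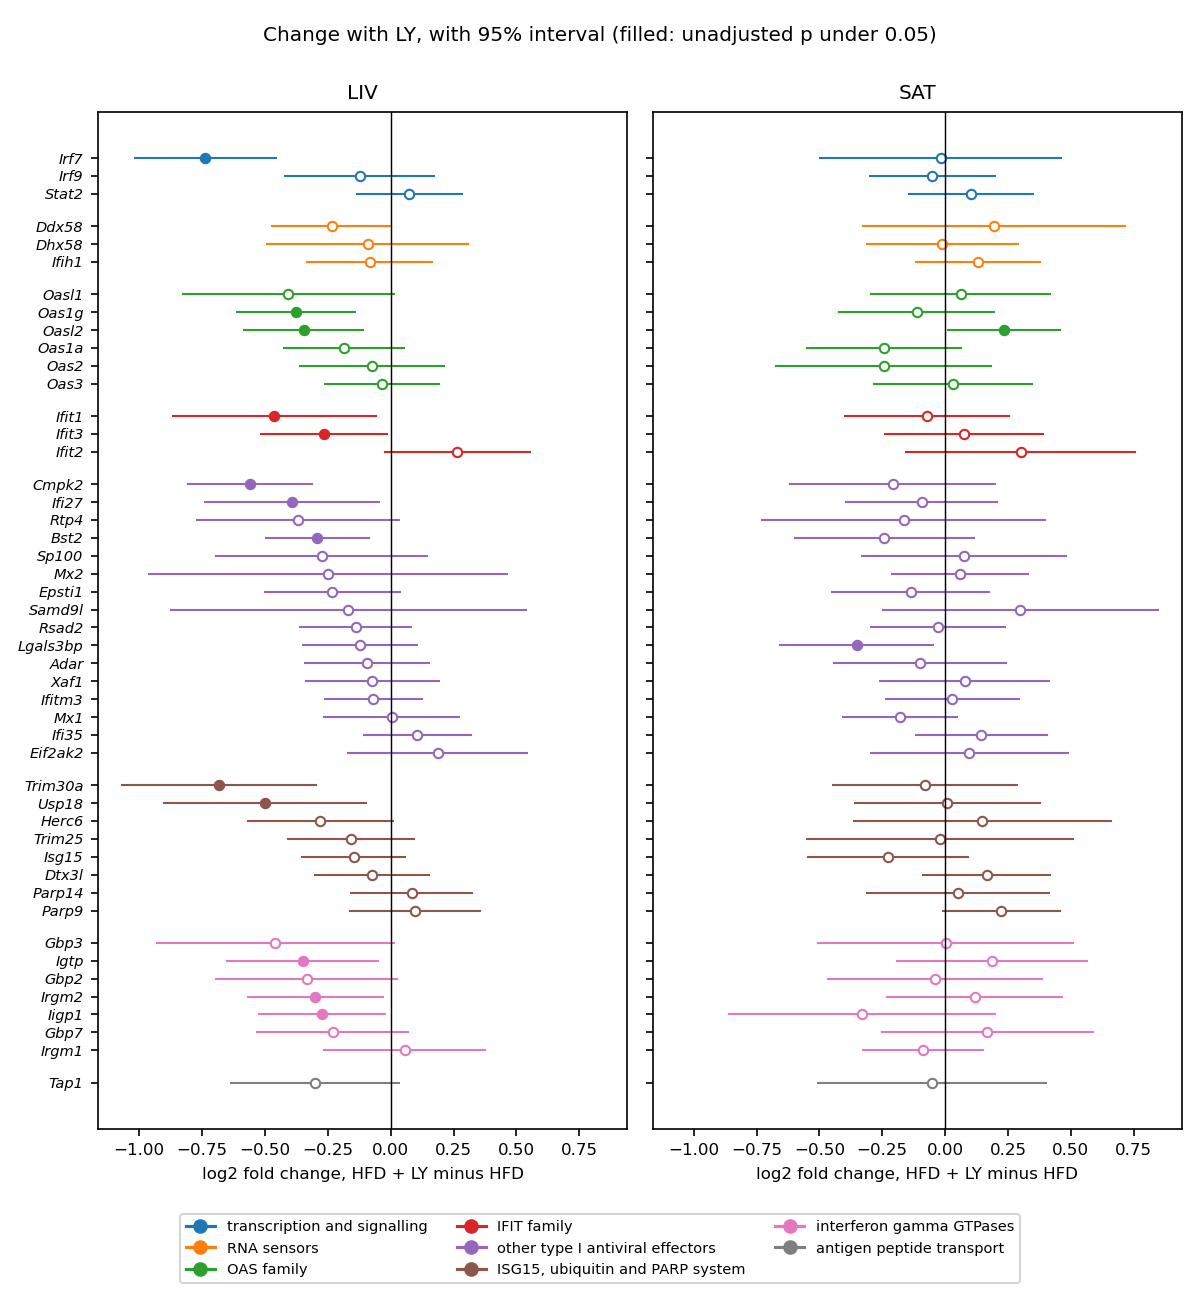
Log2 fold change of HFD + LY minus HFD for each of the 47 members in LIV (left) and SAT (right), with the 95% confidence interval of limma, coloured by role and filled where the unadjusted p was under 0.05. In LIV 39 of 47 points lie left of 0 and 13 are filled, whereas in SAT 23 lie left of 0 and 2 are filled.

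The shift in LIV was carried most by an animal of each group. HFD animal 8 held the highest of the 6 LIV arrays in 28 of the 47 members, and HFD + LY animal 20 the lowest in 25, where 15.3% and 14.7% of all probe sets had their highest and lowest array there. The median deviation of the 47 members from their LIV mean was 0.18, 0.06 and 0.02 in HFD animals 8, 11 and 14 and -0.04, -0.01 and -0.21 in HFD + LY animals 16, 18 and 20. All controls thus lay above all treated livers in this median, and animals 11, 14, 16 and 18 lay within 0.1 of the mean. For the GTPases alone, the deviations were 0.26, 0.04 and 0.04 against -0.05, -0.03 and -0.30. Leaving out animal 8 reduced the median difference to -0.12 over all members and to -0.10 over the type I effectors.

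**Figure D3:**
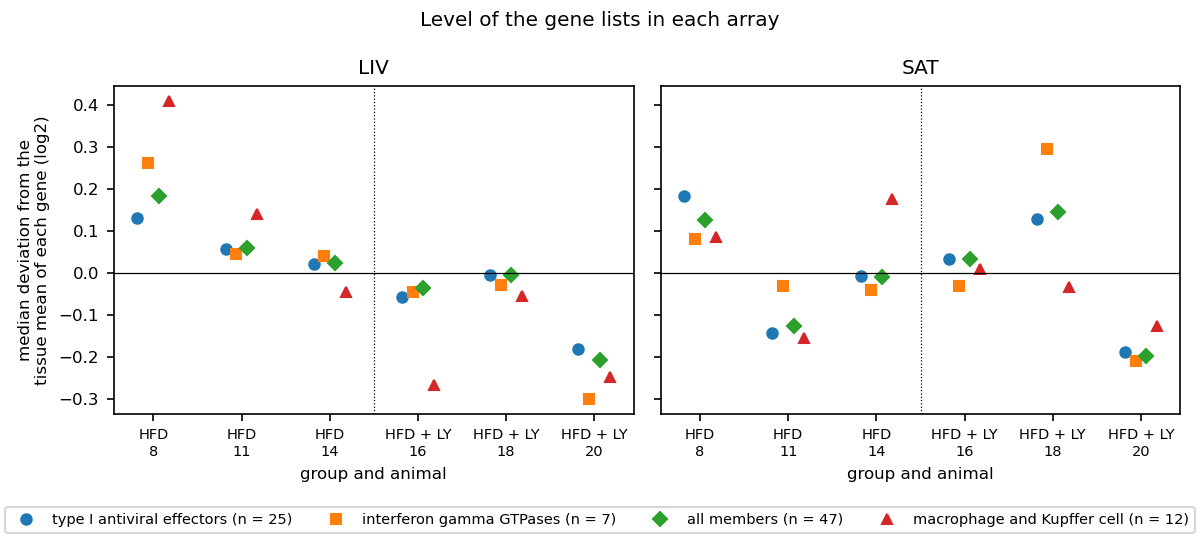
Median deviation of each list's genes from their mean in the tissue, in log2 units, for every array of LIV (left) and SAT (right), with the number of genes in the key. In LIV all members run from 0.18 in HFD animal 8 to -0.21 in HFD + LY animal 20 and macrophage markers from 0.41 in animal 8 to -0.27 in animal 16, whereas in SAT both groups lie on both sides of 0.

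Macrophage and Kupffer cell markers moved with the interferon-stimulated genes in LIV. The mean log2 signal of the 12 markers measured was 9.04, 8.80 and 8.63 in HFD and 8.47, 8.64 and 8.38 in HFD + LY. All 12 were negative and 4 were lower at an unadjusted p under 0.05, namely the complement genes C1qa (-0.50) and C1qb (-0.30), the macrophage protein gene Cd5l (-0.44) and the lysozyme gene Lyz2 (-0.35). The part of these cells in the interferon-stimulated signals was not tested, and in a bulk sample fewer cells of a type and less RNA per cell cannot be told apart. Markers of T and NK cells, B cells, neutrophils, endothelial cells and plasmacytoid dendritic cells had 0 members past that threshold in LIV. Plasmacytoid dendritic cells are the main producers of type I interferon in infection. Of 8 adipocyte markers 4 were lower, Plin4 (-0.74), Cidec (-0.50), Fabp4 (-0.42) and Lep (-0.37), with a list median of -0.29. For comparison, 3.94% of all probe sets were lower. Pck1, on the same list, was higher in LIV than in SAT (0.79), and the cells behind these signals were not tested.

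Few genes upstream of the response passed the threshold in LIV. None of the 13 interferon genes, from Ifna1 to Ifnl3, passed it, with a median difference of -0.07. Of 9 receptor and kinase genes, only Il10rb, whose product is shared by the interferon lambda and IL-10 receptors, was lower (-0.43, adjusted p = 0.685 by limma). None of 6 further STAT and IRF factors, 10 nucleic acid sensing genes and 5 inhibitors of interferon signalling passed. Of 11 genes of class I antigen presentation and the immunoproteasome, 8 were negative, with a median of -0.15, and only Psmb9, an immunoproteasome subunit, passed as lower (-0.35, adjusted p = 0.687 by limma). The HFD + LY arrays lay wholly below those of HFD for 4 of the 11, namely Psmb9, the peptide transporter gene Tap2, B2m, which encodes the class I light chain, and the class I gene H2-K1, against 6.89% of all probe sets. Of 4 chemokines, Cxcl9, which is induced by interferon gamma, was lower (-0.26, adjusted p = 0.687 by limma).

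In SAT, the interferon-stimulated genes showed no common direction. The median difference between HFD + LY and HFD was 0.0032 over the 47 members and -0.0048 over all probe sets, with 23 members negative and 24 positive. With 1 array left out, the members' median ranged from -0.06 without animal 18, with 30 negative, to 0.11 without animal 20, with 31 positive. At an unadjusted p under 0.05 limma placed 1 member higher and 1 lower (2.13% each), against 1.86% and 3.19% of all probe sets, and no member or other probe set (0%) passed an adjusted p under 0.05. Groups did not overlap for 2 members on the higher and 2 on the lower side, against 4.01% and 5.48% of all probe sets. After quantile normalization within SAT the same counts of members were found, while the split of all probe sets went from 413 higher and 708 lower to 614 higher and 636 lower.

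The lower gene was Lgals3bp, which encodes a secreted galectin-binding glycoprotein. It read 11.232, 10.747 and 11.004 in HFD and 10.642, 10.677 and 10.607 in HFD + LY. All treated arrays lay below all controls, at a difference of -0.35 (SE 0.13, adjusted p = 0.951 by limma). The higher gene was Oasl2, which was lower in LIV. It read 7.61, 7.64 and 7.47 in HFD and 7.76, 7.89 and 7.79 in HFD + LY. Its groups did not overlap either, and the difference was 0.23 (SE 0.10, adjusted p = 0.971 by limma).

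The next members by p did not pass. Parp9 read 7.60, 7.38 and 7.41 in HFD and 7.73, 7.71 and 7.62 in HFD + LY, a difference of 0.22 (adjusted p = 0.975 by limma) without overlap. Mx1, whose product blocks influenza viruses in mice with an intact gene, read 6.13, 6.06 and 6.27 against 5.96, 5.92 and 6.04 and differed by -0.18 (adjusted p = 0.994 by limma). Oas1a read 8.45, 7.97 and 8.18 against 8.04, 7.96 and 7.88, with overlap, and differed by -0.24 (adjusted p = 0.994 by limma). Of the 25 type I antiviral effectors measured, 13 were negative and 12 positive in SAT. Their median difference was -0.03, beside 0.0032 for the GTPases.

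Leaving out the SAT arrays with the highest muscle signal, those of animals 11 and 20, altered these counts. HFD animal 14, whose muscle marker mean in SAT was 9.16, stayed in. A link of the members' signals to muscle was not tested. In LIV too, HFD + LY animal 20 held the lowest array in 25 of the 47 members, against 14.7% of all probe sets. HFD + LY animal 20 held the lowest of the 6 SAT arrays in 24 of the 47 members and HFD animal 11 in 13, against 17.9% and 18.6% of all probe sets, and HFD + LY animal 18 held the highest in 21 and HFD animal 8 in 17, against 17.4% and 17.9%. The median deviations of the members were 0.13, -0.13 and -0.01 in HFD and 0.03, 0.14 and -0.20 in HFD + LY, so that each group had an array on either side. Without animals 11 and 20, 6 members were higher and 4 lower at an unadjusted p under 0.05, while 7.87% of all probe sets were higher and 10.3% lower in that fit of 4 arrays. Ifit2, at 0.51 (SE 0.10, adjusted p = 0.0440 by limma), then passed the adjusted threshold. The share of all probe sets that passed it in this fit is not given here, so the pass cannot be set against that share. It read 7.55 and 7.60 in HFD animals 8 and 14 and 8.06 and 8.12 in HFD + LY animals 16 and 18, beside 7.47 in animal 11 and 7.35 in animal 20. With all arrays its difference was 0.30 (adjusted p = 0.994 by limma). Without animal 20 alone, 8 members were higher and 0 lower, against 6.74% and 5.52% of all probe sets, and without animal 16 none passed in either direction, against 0.982% and 1.5%.

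Upstream of the response in SAT, 1 of 9 receptor and kinase genes was higher, Ifngr1, the ligand-binding chain of the interferon gamma receptor (0.35, adjusted p = 0.950 by limma), and 1 of 6 STAT and IRF factors was lower, Irf5, a factor of inflammatory macrophages (-0.30, adjusted p = 0.957 by limma). No interferon, sensing, inhibitor, antigen presentation or chemokine gene passed. Siglech, a marker of plasmacytoid dendritic cells, was higher in SAT of HFD + LY mice (0.57, adjusted p = 0.949 by limma), alone among the 7 markers of these cells. Of the other marker lists in SAT, 2 of 9 hepatocyte, 2 of 8 adipocyte, 1 of 12 macrophage and 1 of 5 neutrophil markers were lower. For comparison, 3.19% of all probe sets were lower.

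The response of the 2 tissues was then compared directly, as the change in SAT minus the change in LIV. This difference was positive for 37 of the 47 members, with a median of 0.20, against 0.0008 over all probe sets. At an unadjusted p under 0.05, 4 members (8.51%) had a more positive change in SAT and 0 in LIV, against 2.77% and 3.44% of all probe sets. None passed an adjusted p under 0.05, which 9 probe sets (0.0405%) did. With the animal as a replicate block, 8 members passed the unadjusted threshold, all with the more positive change in SAT, where 2.96% of all probe sets passed on that side and 3.67% on the other. Without animals 11 and 20, 6 members passed on that side and 1 on the other, against 4.65% and 6.21% of all probe sets.

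Oasl2 led these genes. Its signal was lower in every treated liver and higher in every treated SAT, as listed above, and the changes differed by 0.58 (SE 0.14, adjusted p = 0.404 by limma). Irf7 read 8.30, 8.20 and 8.10 in SAT of HFD mice and 8.21, 8.61 and 7.72 in SAT of HFD + LY mice. These treated arrays spread to both sides of the controls, whereas in LIV all lay below, and the changes differed by 0.72 (SE 0.26, adjusted p = 0.780 by limma). Trim30a read 9.48, 8.99 and 9.27 against 9.19, 9.37 and 8.94 in SAT, and Igtp read 8.49, 8.50 and 8.17 against 8.45, 8.90 and 8.37. Both overlapped in SAT, and their changes differed between tissues by 0.60 (SE 0.25) and 0.54 (SE 0.22), with an adjusted p of 0.791 by limma for each. Irgm2 came next without passing. It read 9.28, 9.35 and 9.34 against 9.54, 9.67 and 9.10 in SAT and gave 0.42 (SE 0.20, adjusted p = 0.810 by limma).

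Levels in LIV and SAT were also compared, as the mean of the HFD and HFD + LY groups of each tissue. Differences were common over the whole array. At an adjusted p under 0.05 limma placed 10 of 47 (21.3%) higher in LIV and 20 (42.6%) higher in SAT, against 30.7% and 29.2% of all probe sets. With each array centred on its median these counts were 14 and 16, against 39.8% and 25.8% of all probe sets, and without animals 11 and 20 they were 10 and 22, against 29.1% on each side. All 3 IFIT genes and 4 of 6 OAS genes were higher in SAT with Oasl1 alone of the OAS family higher in LIV. After the centring Oas2, Oasl2 and Ifit1 kept their sign but did not pass. The GTPases split, with Gbp2, Gbp3 and Gbp7 higher in SAT, Iigp1 and Irgm1 higher in LIV, and Igtp and Irgm2 not past the threshold, of which Irgm2 passed as higher in LIV after the centring (0.27, adjusted p = 0.0394 by limma).

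The widest gap was that of Ifi27, which lay between 9.80 and 10.62 in LIV and between 11.77 and 12.13 in SAT, a difference of -1.81 (SE 0.11, 3.51-fold, adjusted p = 9.4e-09 by limma). Trim30a lay between 6.80 and 8.05 in LIV and between 8.94 and 9.48 in SAT, and Gbp2 between 6.71 and 7.54 and between 8.28 and 8.97. Their differences were -1.68 and -1.50, with no overlap of the tissues. Sp100, a component of nuclear bodies, and Gbp3 followed at -1.39 and -1.24. On the other side, Iigp1 lay between 9.82 and 10.35 in LIV and between 8.48 and 9.50 in SAT, and Bst2 between 11.80 and 12.22 and between 10.62 and 11.28. These were 1.26 (2.40-fold, adjusted p = 4.51e-06 by limma) and 1.11 (2.15-fold, adjusted p = 2.94e-07 by limma) higher in LIV. Irgm1, Dhx58 and Ifitm3, which encodes a membrane protein that blocks viral entry, followed at 0.90, 0.86 and 0.81. The 6 hepatic values of Ifitm3 lay between 12.52 and 12.66, the narrowest range among these genes.

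**Figure D4:**
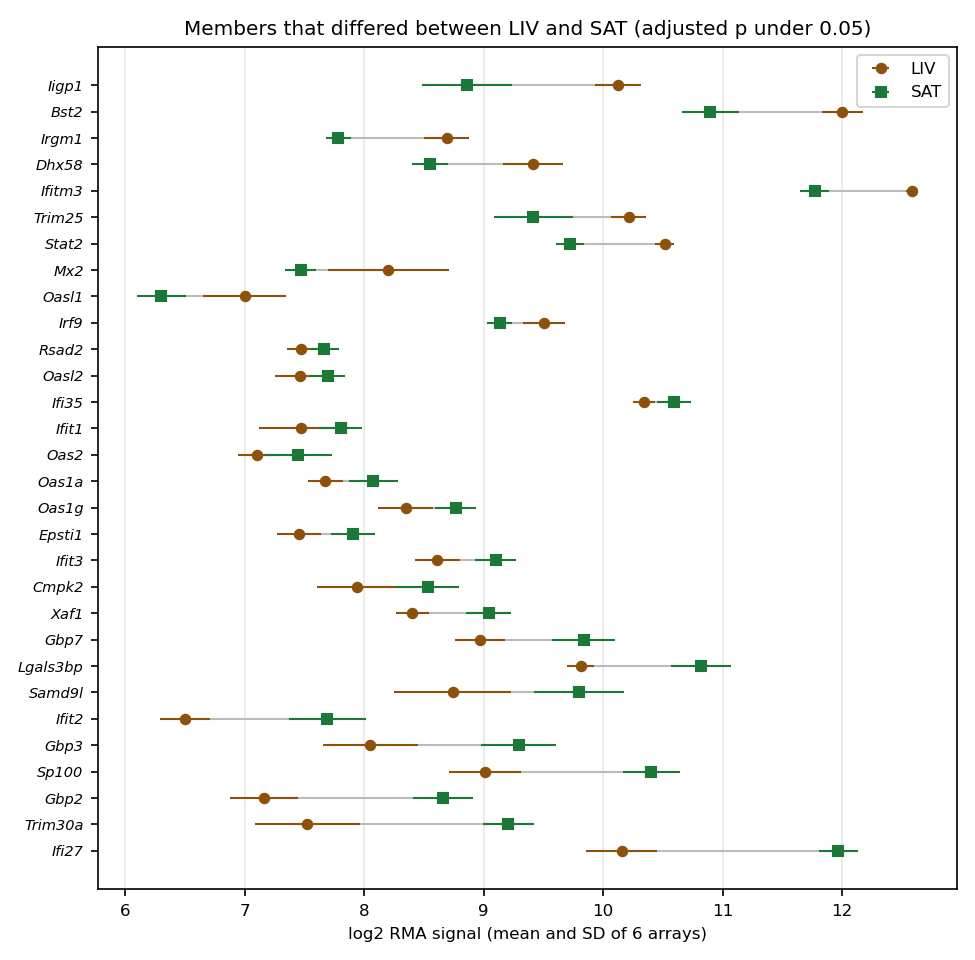
Mean log2 signal with SD over 6 arrays in LIV (brown) and SAT (green) for the 30 members that differed between the tissues at an adjusted p under 0.05, ordered by the difference. The upper 10 genes, led by Iigp1, are higher in LIV and the lower 20, ending with Ifi27, are higher in SAT.

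Genes that were lower together in LIV included families with related promoters, so the promoter windows of RefSeq (GRCm38.p6, from 250 bases before to 50 bases from the annotated start on) were searched for interferon elements. Windows were found for 41 of the 51 genes. An ISRE was read as GAAANNGAAA on either strand and a GAS as TTCNNNGAA, which is its own reverse complement, and the 2 patterns can overlap. An ISRE was present for 22 of the 41 genes (53.7%), against 3.99% of all genes in the table, and a GAS for 12 (29.3%), against 9.55%. Among the GTPases 8 of 9 had an ISRE and 5 of 9 a GAS, and among the type I effectors 9 of 21 and 7 of 21. Of the members lower in LIV at an unadjusted p under 0.05, 7 of the 10 with a window had an ISRE, and of the other measured members 13 of 27 did. A match is a description of letters and says nothing of binding in these tissues.

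Of the 13 genes lower in LIV, the promoters of 5 are shown, from the GTPases, the OAS and IFIT families and Bst2, because they display how the elements are arranged. Igtp and Irgm2 carry a GAS followed, after a spacer, by an ISRE, beginning at bases -45 and -34 in Igtp and at -75 and -64 in Irgm2, and their windows share a run of 61 identical bases. The ISRE copies of Oas1g, at -18 and -12, overlap, as do those of Bst2 at -130 and -124, where a GAS at -136 runs into them. Ifit1 has separate copies at -104 and -85 that are read on the other strand. The Oas1g window shares a run of 73 bases with that of Oas1a, at which the LIV difference was -0.19 and did not pass. Each window is written along the gene's strand from 5′ to 3′, in lower case with ISRE and GAS letters in capitals.
Igtp (chr11:58199306-58199605, plus strand): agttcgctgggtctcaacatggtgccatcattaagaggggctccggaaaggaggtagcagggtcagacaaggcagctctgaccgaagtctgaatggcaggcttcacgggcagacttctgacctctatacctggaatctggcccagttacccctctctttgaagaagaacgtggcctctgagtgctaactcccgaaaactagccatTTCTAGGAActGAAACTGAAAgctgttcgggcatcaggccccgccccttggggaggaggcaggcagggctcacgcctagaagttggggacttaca
Irgm2 (chr11:58214727-58215026, plus strand): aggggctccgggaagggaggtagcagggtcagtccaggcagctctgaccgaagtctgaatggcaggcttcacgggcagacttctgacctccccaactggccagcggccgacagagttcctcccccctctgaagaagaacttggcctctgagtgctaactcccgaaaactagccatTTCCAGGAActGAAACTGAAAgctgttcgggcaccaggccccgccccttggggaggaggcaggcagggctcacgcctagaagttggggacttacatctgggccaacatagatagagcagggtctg
Oas1g (chr5:120887564-120887863, minus strand): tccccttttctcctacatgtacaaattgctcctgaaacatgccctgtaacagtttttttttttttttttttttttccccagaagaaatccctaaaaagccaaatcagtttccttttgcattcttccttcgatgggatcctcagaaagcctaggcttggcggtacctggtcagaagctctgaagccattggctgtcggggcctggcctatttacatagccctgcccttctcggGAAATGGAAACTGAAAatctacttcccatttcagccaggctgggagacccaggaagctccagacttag
Ifit1 (chr19:34640639-34640938, plus strand): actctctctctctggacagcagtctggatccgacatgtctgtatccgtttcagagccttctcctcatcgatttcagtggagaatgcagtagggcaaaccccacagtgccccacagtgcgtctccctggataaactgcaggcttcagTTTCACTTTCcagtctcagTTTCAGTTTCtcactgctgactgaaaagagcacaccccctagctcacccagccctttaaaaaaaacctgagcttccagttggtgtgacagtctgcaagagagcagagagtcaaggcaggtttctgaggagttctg
Bst2 (chr8:71537423-71537722, minus strand): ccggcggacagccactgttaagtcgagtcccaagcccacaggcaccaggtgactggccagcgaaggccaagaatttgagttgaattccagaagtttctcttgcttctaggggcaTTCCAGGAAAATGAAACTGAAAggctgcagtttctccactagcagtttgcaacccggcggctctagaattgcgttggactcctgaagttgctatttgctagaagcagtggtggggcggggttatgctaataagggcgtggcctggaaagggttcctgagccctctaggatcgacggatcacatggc
The Irf7, Cmpk2 and Oasl2 windows, of members lower in LIV, held neither pattern. No window was found for Usp18, Ifi27 and Iigp1, so their promoters were not searched.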

How the data were processed

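Total RNA of the 12 tissue samples was labelled with an Affymetrix whole-transcript kit, hybridised and, per the labels, summarised with RMA by the authors. The deposited values are on the log2 scale and were used unchanged. RMA shrinks small signals together, so log2 differences of dim probe sets are understated, and the depth of an array is limited by its number of probes. Without 6640 control probe sets, 22206 entered the tests, 19572 with 1 gene symbol and 2634 with none. Array medians lay between 8.16 and 8.28. The genome build of the array design is not given in the sources used here. A gene with several probe sets was read from the brightest over all arrays.

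Groups were compared with limma 3.58.1 in R 4.3.3 (lmFit and eBayes), in each tissue on its 6 arrays and, for the interaction and for LIV against SAT, on all 12, unfiltered, and p-values were adjusted by Benjamini-Hochberg over all those probe sets. Thresholds were 0.05. Genes were named by p, at most 10 per comparison, or 5 where fewer than 5 passed an unadjusted p under 0.05, and for LIV against SAT as the 5 highest and 5 lowest. The fits were tested on simulated data. Members, lists and alternatives were chosen with earlier results of these data known.

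LIV and SAT arrays with the same number come from the same animal. Their deviations from the group means correlated at -0.07 to 0.21 by animal over all probe sets. Alternatives were other priors and weights, the methods' t-test, quantile normalization, median centring, filters on dim or unnamed probe sets, leaving out arrays, and a replicate block. Promoter sequences are RefSeq's.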

Additional observations from a re-analysis of the deposited data

Results flagged for a closer look

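The change with LY differed between SAT and LIV, at an unadjusted p under 0.05 of limma's interaction term, for 4 of the 47 members. The change in SAT minus that in LIV was 0.58 for Oasl2, 0.72 for Irf7, 0.54 for Igtp and 0.60 for Trim30a. None passed an adjusted p under 0.05 by limma, the lowest being 0.404 for Oasl2. Oasl2 and Irf7 stayed past the unadjusted threshold in each of the 11 alternatives run, whereas Igtp did not pass in 5 and Trim30a in 3 of them. Only Oasl2 had every treated array on one side of the controls in LIV and on the other in SAT.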

How the results depend on the processing

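No member passed an adjusted p under 0.05 in LIV or for the interaction under any alternative. In SAT only Ifit2 did, in 1 fit of 4 arrays, without animals 11 and 20, and the share of all probe sets there is not given. In SAT the count at an unadjusted p under 0.05, 2 with all arrays, was 1 with an intensity trend. Without dim probe sets it was 1 of the 31 members left, as that filter took out Oasl2 among others. The count was 10 with array weights (12.1% of all probe sets lower and 9.38% higher) and 10 without animals 11 and 20 (10.3% and 7.87%). With 1 array left out it ranged from 0 (without HFD + LY animal 16) to 8 (without animal 20). In LIV the count of 13 was 6 by the methods' t-test and 10 to 19 under the other fits with all arrays. Without dim probe sets it was 10 of the 30 members left, as that filter took out Irf7, Cmpk2, Oasl2 and Trim30a among others. With 1 array left out the count ranged from 7 (without HFD + LY animal 20) to 17 (without animal 18), and was 8 without HFD animal 8. Bst2, Cmpk2, Irf7, Oas1g, Oasl2 and Trim30a passed by the methods' t-test and in each fit with 1 array left out. For the interaction the count of 4 was 8 with a fixed replicate block, 5 with a random one and 7 without animals 11 and 20. With both arrays of 1 animal left out it was 3 to 11, highest without animal 20. With 1 array left out, the median difference of the GTPases in SAT, 0.0032, ranged from -0.12 (without animal 18) to 0.22 (without animal 20), that of the type I effectors in LIV, -0.19, from -0.24 to -0.10 (without HFD animal 8), and that of all members in LIV, -0.23, from -0.28 to -0.12 (without HFD animal 8). With 3 animals per group and signals as dim as 6 on the log2 scale for some members, small differences could not be resolved.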
